A study of Mus musculus with 8 samples.

Results

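The sex difference of liver gene expression was examined in mice whose hepatocytes lack both Stat5a and Stat5b. The genes taken were the autosomal genes, listed neither on X nor on Y, whose mean level reached 1 FPKM in knockout male or knockout female liver. FPKM is the number of fragments per kilobase of gene, scaled to the size of the library. Of 24197 listed genes, 23082 were autosomal and 9060 met this level. The threshold fell between Gm11423 and Fam175a at 0.999786 and 0.999791 FPKM, which were left out, and Camsap1 and Arsk at 1.00065 and 1.00087 FPKM, which were taken. The same threshold in control liver gave 8966 genes, of which 8708 were shared. The remaining 352 knockout genes lay below 1 FPKM in both control groups.

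Growth hormone is secreted in pulses in male rodents and more continuously in females, and liver reads this pattern through its receptor, the kinase JAK2 and the transcription factors STAT5A and STAT5B. In male mouse liver, pulses of STAT5 activity accompany expression of male-biased genes such as those of major urinary proteins, while female-biased genes include many cytochromes P450 and sulfotransferases of steroid and drug metabolism. Sex steroids also act on liver, both through the pituitary and through their own receptors. The comparison of the sexes without STAT5 asks which of these differences are still present when hepatocytes lack the 2 factors.

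Livers came from 4 groups of mice aged 8 to 12 weeks, with 2 libraries a group. Knockout males and knockout females carried floxed Stat5a-Stat5b alleles and a Cre transgene driven by the albumin promoter. Control males and control females carried the floxed alleles and are described only as floxed controls. The floxed alleles were on a mixed C57BL/6 x 129J background, and the Cre line was FVB/N. Cre acts in hepatocytes, so other liver cells keep both genes. In whole liver, fewer cells of a type and less RNA per cell cannot be told apart. Every library is a pool of several livers whose number is unstated, so p-values measure the spread between pools at most. The titles carry a code of unstated meaning, G138 or G140 on the knockout male libraries, G137 on both knockout female libraries, G140 on the control male and G138 on the control female libraries. Code and sex cannot be told apart in either genotype.

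Knockout libraries held 8205700 to 10889487 reads in genes and control libraries 2286663 to 11354729. The table gives mean FPKM per group, and single libraries were recovered from these means. Below, values of a group are given for its deeper library first and its shallower library second. Stat5b had 0.684 and 1.03 FPKM in knockout males, 1.77 and 1.11 in knockout females, 1.95 and 3.41 in control males and 3.88 and 2.9 in control females. Stat5a had 0.13 and 0.227 FPKM in knockout males against 0.499 and 0.12 in knockout females, and 0.6 and 1.16 in control males against 0.92 and 0.804 in control females. For Stat5b every knockout library lay below every control library, and for Stat5a likewise, with the deeper knockout female library nearest to control. Within knockout, both female libraries lay above both male libraries for Stat5b, while the sexes overlapped for Stat5a. The part of this remaining Stat5b in the sex differences below was not tested. Sex-linked transcripts matched the labelled sex in all 8 libraries, Xist at 0.0845 and 0.163 FPKM in knockout males and 45.3 and 47.9 in knockout females. Interferon-response genes split the knockout pools within each sex. Gbp2, a guanylate-binding protein, had 15.9 and 2.06 FPKM in male and 2.6 and 19.2 in female knockout livers, beside 0.503 and 0.263 in male and 0.905 and 0.921 in female control livers. The list of 35 interferon genes held 0 members called between knockout males and knockout females by the authors' adjusted p and 0 by voom, with 0 at an unadjusted p under 0.05.

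Without STAT5 the sexes still differed, most of all at the genes that differ most in control liver. The authors' deposited table called 181 of the 9060 genes between knockout males and knockout females at an adjusted p under 0.05, which is 2%, with 87 higher in males (0.96%) and 94 higher in females (1.04%). Over all 24197 listed genes the share was 1.01% in knockout and 1.47% in control liver. In control liver the same table called 254 of the 9060 (2.8%), with 113 higher in males (1.25%) and 141 higher in females (1.56%). Limma voom on the recovered reads called 41 of 8873 genes fitted in knockout liver (0.462%), 19 higher in males (0.214%) and 22 higher in females (0.248%), and 84 in control liver (0.947%). Limma on log2(FPKM + 1) called 27 (0.298%) in knockout liver and 97 (1.07%) in control liver. Both fits rest on 2 pools a group and 4 residual degrees of freedom. With 1 library left out at a time, voom called 25 to 45 genes in knockout liver, 25 without the deeper knockout female library, and 19 to 121 in control liver, 19 without the deeper control female library. Limma called 4 to 21 in knockout liver, 4 without the shallower knockout male library.

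To read the same measure in both genotypes, a gene was called dimorphic where the sexes' mean FPKM differed at least 2-fold, the higher sex reached 1 FPKM and the libraries of the sexes did not overlap. By this rule 280 of the genes were dimorphic in control liver (3.09%), 147 higher in males (1.62%) and 133 higher in females (1.47%). In knockout liver 219 were dimorphic (2.42%), 90 higher in males (0.993%) and 129 higher in females (1.42%). Libraries of the sexes did not overlap for 37.3% of the genes in knockout liver and 47.3% in control liver, so this condition alone is weak. The knockout and control contrasts share no library.

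Of the 147 genes that were male-biased in control liver, 43 were male-biased in knockout liver (29.3%), 99 did not meet the rule and 5 met it in the opposite direction. Of the 133 female-biased genes, 50 were female-biased in knockout liver (37.6%), 80 did not meet the rule and 3 met it in the opposite direction. Genes below 1 FPKM in both knockout groups cannot meet the rule in knockout and are outside these counts. With them included, the shares were 43 of 182 male-biased (23.6%) and 50 of 147 female-biased autosomal genes (34.0%). Among the 8780 genes not dimorphic in control, 118 met the rule in knockout in either direction, which is 1.34%. More genes kept the sign of the ratio than met the rule. The knockout mean ratio pointed the control way for 120 of the 147 male-biased and 113 of the 133 female-biased genes. The median log2 ratio in the control direction was 0.71 in knockout and 1.49 in control for male-biased genes, and 0.72 in knockout and 1.73 in control for female-biased genes. Control libraries chose these genes, which favours a smaller ratio in knockout with or without a change. Of the genes dimorphic in knockout, 47.8% of the male-biased and 38.8% of the female-biased ones were so in control. By the authors' adjusted p in both genotypes, 45 of 113 male-biased calls (39.8%) and 50 of 141 female-biased calls (35.5%) were made in both, and 0 were called in opposite directions. FPKM ratios in control had a median of 0.16 on the log2 scale toward males over the 9027 genes above 0 in both sexes, against -0.01 over 9047 genes in knockout. With ratios centred on their medians, control liver had 109 male-biased and 176 female-biased genes, and 42 and 54 of these stayed dimorphic.

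The share of genes that met the rule in knockout rose with the size of the control difference. Of genes at least 16-fold different in control, 14 of 16 male-biased and 15 of 18 female-biased genes were dimorphic the same way in knockout. Between 4-fold and 16-fold, this held for 17 of 31 male-biased and 18 of 35 female-biased genes. Between 2-fold and 4-fold, it held for 12 of 100 male-biased and 17 of 80 female-biased genes. The shares are a description, with no test. Genes further apart in control meet a fixed 2-fold rule more readily even when all ratios shrink alike, which favours this order. For male-biased genes the median log2 ratio in the control direction was 1.23 in control and 0.50 in knockout at 2-fold to 4-fold. It was 2.76 and 1.16 at 4-fold to 16-fold, and 5.47 and 2.40 from 16-fold. For female-biased genes these medians were 1.27 and 0.46, 2.69 and 1.09, and 6.03 and 2.87. Across the 231 control-dimorphic genes of at least 200 bases, the log2 ratios of the genotypes had a Pearson correlation of 0.85 and a Spearman correlation of 0.84. Across the 8538 genes of at least 200 bases that were not dimorphic in control, these were 0.30 and 0.28. The rule that made these 2 sets keeps large control ratios of both directions in the first and mostly small ones in the second. That choice by itself favours a higher correlation in the first set. Genes are not independent replicates, and each point compares the same pools.

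**Figure D1:**
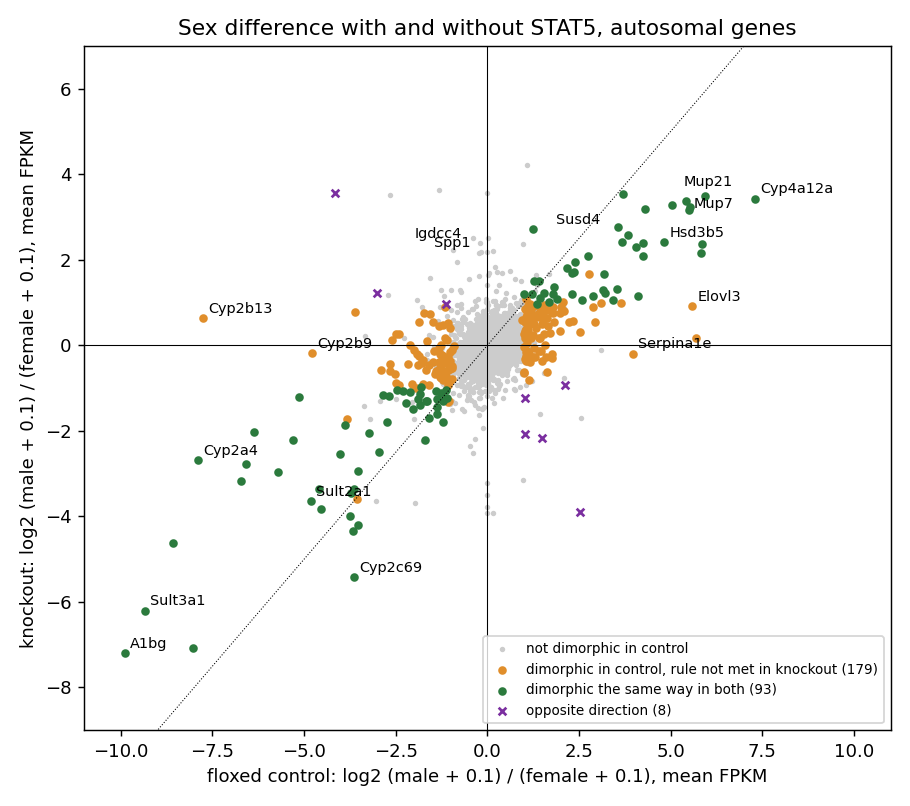
The horizontal axis is the log2 ratio of male to female mean FPKM in floxed control liver and the vertical axis the same ratio in knockout liver, each with 0.1 FPKM added, for 9060 autosomal genes. Green points are the 93 genes dimorphic the same way in both genotypes, orange points the 179 that do not meet the rule in knockout, and purple crosses the 8 in opposite directions, and most green points lie between the horizontal line and the dotted line of equal ratios.

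Female-biased genes that stayed so in knockout liver included a plasma protein and enzymes that act on xenobiotics and steroids. A1bg, a secreted plasma glycoprotein of the immunoglobulin superfamily (chromosome 15, 60749143 to 60752825 on mm9), had 0.537 and 0.576 FPKM in knockout males, 123 and 69.8 in knockout females, 0.207 and 0 in control males and 246 and 139 in control females. Both knockout female libraries lay far above both knockout male libraries, which were near 0 as in control males. The authors' deposited table gave it as 169.9-fold higher in knockout females than in knockout males (adjusted p = 1.8e-86), and voom gave a male minus female log2 difference of -7.33 with a standard error of 0.52 (adjusted p = 0.00075). Sult3a1, a sulfotransferase of amines (chromosome 10, 33577527 to 33599281), had 1.9 and 8.41 FPKM in knockout males against 467 and 308 in knockout females, and 0.0626 and 1.03 in control males against 599 and 243 in control females. Its knockout females overlapped the control females. It was 75.5-fold higher in knockout females in the authors' deposited table (adjusted p = 9.3e-26; voom adjusted p = 0.0037). Gm4794, a neighbour of Sult3a1 on chromosome 10, had 0.465 and 1.38 FPKM in male and 174 and 101 in female knockout livers, beside 0 and 0.732 in male and 188 and 57 in female control livers, and reads may be split between near-identical copies of this family.

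Cytochromes P450 of the female-biased Cyp2c and Cyp3a groups, which hydroxylate steroids, fatty acids and drugs, were among the most dimorphic genes of knockout liver. Cyp2c69 had 1.98 and 1.76 FPKM in knockout males, 116 and 52 in knockout females, 12.5 and 3.28 in control males and 113 and 86.5 in control females. Knockout males lay below control males, and the authors' deposited table called that fall (4.43-fold, adjusted p = 0.00068). Its fold of females over males was 44 in knockout and 13.1 in control in the authors' deposited table. The change between genotypes was not called by limma (log2 -1.06, adjusted p = 0.76). Cyp3a16 had 3.83 and 1.43 FPKM in knockout males against 63.8 and 47.4 in knockout females, and 2.28 and 4.01 in control males against 67.9 and 14.3 in control females. Cyp3a44 had 6.85 and 5.18 FPKM in male and 74.7 and 51.6 in female knockout livers, beside 3.36 and 1.32 in male and 79 and 39.3 in female control livers. The sexes did not overlap in either genotype. Both genes passed the authors' test and voom in knockout liver (voom adjusted p = 0.048 and 0.0059). Cyp2c40 had 2.49 and 1.43 FPKM in knockout males, 47.8 and 27.8 in knockout females, 14.6 and 1.26 in control males and 80.9 and 102 in control females and passed the authors' test (adjusted p = 2.5e-31) but not voom (adjusted p = 0.072). Cyp2a4, a steroid hydroxylase, had 21.5 and 9.31 FPKM in knockout males against 98.7 and 100.3 in knockout females, and 1.04 and 0.0942 in control males against 171 and 149 in control females. It stayed 6.25-fold higher in knockout females in the authors' deposited table, against 218-fold in control females. These genes have near-identical copies, so single members are uncertain. Leaving out families of such copies kept 57 of 229 control-dimorphic genes, 25 male-biased and 32 female-biased.

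Hydroxysteroid sulfotransferase genes of the Sult2a cluster on chromosome 7, which add sulfate to bile acids and steroids, were dimorphic in knockout. Of these, Sult2a1, Sult2a3 and Sult2a7 stood at a higher level in knockout than in control liver of both sexes. Sult2a1 had 7.67 and 10.3 FPKM in male and 106 and 120.0 in female knockout livers, beside 0 and 0.316 in male and 10.9 and 3.39 in female control livers. It rose in both sexes relative to control in the authors' deposited table (139.6-fold in males, adjusted p = 6.0e-31, and 14.2-fold in females, adjusted p = 9.6e-21), and knockout males reached the range of control females. Knockout females still exceeded knockout males 12.4-fold in the authors' deposited table (adjusted p = 1.3e-52; voom adjusted p = 0.0042). Sult2a3, below 1 FPKM in both control groups, had 1.8 and 1.66 FPKM in knockout males, 15.6 and 31.4 in knockout females, 0 and 0.188 in control males and 0.538 and 0.775 in control females. Sult2a2, Sult2a4, Sult2a5 and Sult2a6 were also higher in knockout females, 4.01-fold to 7.74-fold in the authors' deposited table. Sult2a7 went the other way, with 47.8 and 41.7 FPKM in knockout males against 19.6 and 17.4 in knockout females, and 0.956 and 0.36 in control males against 0.193 and 0.222 in control females. It was 2.47-fold higher in knockout males in the authors' deposited table (adjusted p = 1.6e-07; voom adjusted p = 0.0084). Of 14 sulfotransferase genes measured, 2 were called higher in knockout males in the authors' deposited table, Sult2a7 and the estrogen sulfotransferase Sult1e1, and 7 higher in knockout females. Voom called 1 and 6.

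Other female-biased genes that stayed so encode transporters, peroxisomal enzymes and regulators. Slc22a26, of the organic anion transporter family, had 2.82 and 1.34 FPKM in male and 23.6 and 15.7 in female knockout livers, beside 0.359 and 0.161 in male and 41.6 and 34.8 in female control livers. Hao2, a peroxisomal hydroxyacid oxidase, had 4.19 and 1.48 FPKM in knockout males, 21.8 and 18.5 in knockout females, 0.168 and 0.158 in control males and 29.9 and 20.3 in control females. In both genes knockout males lay above control males and below every knockout female library, and both passed the authors' test and voom in knockout liver (voom adjusted p = 0.0042 and 0.017). Cux2, a homeodomain repressor of male-biased genes in female mouse liver, had 0.278 and 0.126 FPKM in knockout males against 4.22 and 2.13 in knockout females, and 0.443 and 0 in control males against 5.22 and 3.03 in control females. Its knockout and control values overlapped within each sex. The authors' deposited table gave it as 15.2-fold higher in knockout females (adjusted p = 2.7e-20), and it missed the threshold in voom (adjusted p = 0.086). Prlr, the prolactin receptor, had 4.18 and 3.41 FPKM in male and 13.9 and 9.58 in female knockout livers, beside 7.38 and 5.45 in male and 15.8 and 18 in female control livers and passed both tests in knockout liver (adjusted p = 3.7e-08 in the authors' deposited table and 0.036 by voom). Trim24, a nuclear receptor cofactor, had 2.57 and 2.34 FPKM in knockout males, 5.51 and 3.94 in knockout females, 2.03 and 1.03 in control males and 5.45 and 5.29 in control females, a 1.89-fold difference in knockout in the authors' deposited table (adjusted p = 0.0071; voom adjusted p = 0.26) that fell short of 2-fold. Igfbp1, an insulin-like growth factor binding protein, had 26.2 and 15 FPKM in knockout males against 42.3 and 60.0 in knockout females, and 1.35 and 2.87 in control males against 8.45 and 5.51 in control females. It was higher in females in both genotypes while rising in both sexes on knockout in the authors' deposited table.

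**Figure D2:**
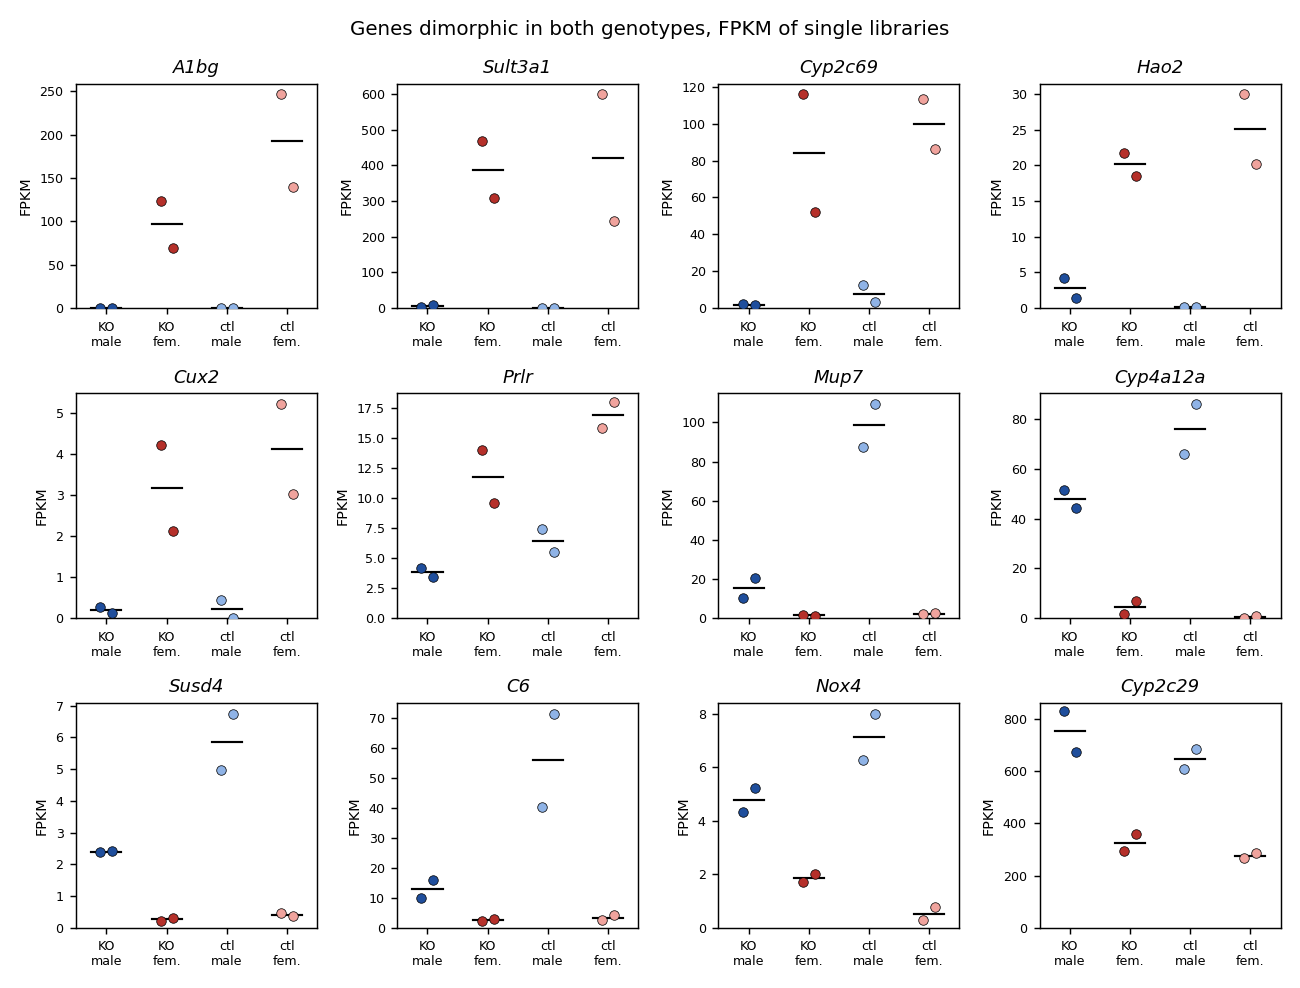
Each panel gives the FPKM of the single libraries of 1 gene, 2 per group, in knockout (KO) males, KO females, control (ctl) males and ctl females, with a line at the group mean. The first 6 genes are higher in females of both genotypes and the other 6 higher in males of both genotypes, with no overlap between the sexes of a genotype.

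Male-biased genes that stayed so included most of the major urinary proteins, the pheromone-binding lipocalins made by liver. Mup7 (chromosome 4, 60079340 to 60083347) had 10.4 and 20.6 FPKM in male and 1.62 and 1.19 in female knockout livers, beside 87.7 and 109 in male and 2.01 and 2.38 in female control livers. Knockout males lay between control males and control females, and above both knockout female libraries. The authors' deposited table gave it as 11-fold higher in knockout males (adjusted p = 4.6e-23), and voom gave a log2 of 3.37 with a standard error of 0.40 (adjusted p = 0.012). Mup17 had 25.1 and 50.8 FPKM in knockout males, 5.12 and 2.49 in knockout females, 148 and 223 in control males and 5.67 and 5.4 in control females. Mup1 had 34.2 and 32.2 FPKM in knockout males against 3.68 and 8.5 in knockout females, and 125 and 182 in control males against 12.3 and 11.4 in control females. Both showed the same order of the 4 groups' levels as Mup7, with knockout males between the control sexes. Mup21 had 23.7 and 98.8 FPKM in male and 5.4 and 5.4 in female knockout livers, beside 197 and 474 in male and 4.36 and 6.34 in female control livers. Its knockout male pools lay far apart, and the voom adjusted p was 0.13. Mup20 had 34.5 and 104 FPKM in knockout males, 14.7 and 16.4 in knockout females, 187 and 573 in control males and 6.09 and 7.13 in control females, so that knockout females lay above control females (2.17-fold in the authors' deposited table, adjusted p = 1.3e-05). Of 17 Mup genes measured, 11 were called higher in knockout males and 0 in knockout females in the authors' deposited table, and voom called 4 and 0. In control liver the table called 14 and 0. The summed level of all 20 Mup genes was 1510 and 3027 FPKM in knockout males, 893 and 625 in knockout females, 4486 and 5970 in control males and 888 and 1078 in control females. The copies are nearly identical, so the sum is firmer than any single gene.

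Cyp4a12a, a fatty acid hydroxylase that acts on arachidonic acid (chromosome 4, 114971650 to 115005420), had 51.3 and 44.3 FPKM in knockout males against 1.75 and 6.94 in knockout females, and 66 and 86.1 in control males against 0.131 and 0.631 in control females. It rose in knockout females relative to control females (11-fold in the authors' deposited table, adjusted p = 5.3e-05), and was not called in males (adjusted p = 0.16). Knockout males were 11.3-fold higher than knockout females in the authors' deposited table (adjusted p = 9.6e-11; voom adjusted p = 0.017). Cyp2c29, an abundant P450, had 832 and 675 FPKM in male and 293 and 359 in female knockout livers, beside 609 and 686 in male and 267 and 286 in female control livers and overlapped between the genotypes in males. Its ratio of males over females was 2.36 in knockout and 2.11 in control in the authors' deposited table, called in both, and it passed voom in knockout liver (adjusted p = 0.024). Cyp2d9, a testosterone hydroxylase, had 143 and 129.7 FPKM in knockout males, 42.2 and 79.6 in knockout females, 157 and 247 in control males and 11.4 and 11.7 in control females. Its knockout females rose 4.78-fold over control females in the authors' deposited table (adjusted p = 2.2e-13).

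Several male-biased genes that stayed so act in other pathways, and 4 that belong to the complement system or its control are given first. C6, a component of the membrane attack complex, had 10.03 and 15.8 FPKM in knockout males against 2.26 and 2.81 in knockout females, and 40.3 and 71.4 in control males against 2.46 and 4.12 in control females. C8a, another component, had 67 and 93.1 FPKM in male and 34.3 and 41.7 in female knockout livers, beside 109.7 and 126 in male and 25.2 and 38.2 in female control livers. In both genes the knockout sexes stood closer together than the control sexes. Susd4, an inhibitor of complement activation, had 2.37 and 2.43 FPKM in knockout males, 0.226 and 0.313 in knockout females, 4.96 and 6.75 in control males and 0.454 and 0.359 in control females. C4a, also known as sex-limited protein, had 3.63 and 6.12 FPKM in knockout males against 1.43 and 0.689 in knockout females, and 13.8 and 7.41 in control males against 0.517 and 0.409 in control females. All 4 were higher in knockout males in the authors' deposited table (adjusted p from 2.4e-21 for Susd4 to 0.00018 for C8a), and voom called C6 and Susd4 (adjusted p = 0.017 and 0.0035). Nox4, an NADPH oxidase that makes hydrogen peroxide, had 4.33 and 5.23 FPKM in male and 1.72 and 2.02 in female knockout livers, beside 6.27 and 8.02 in male and 0.284 and 0.773 in female control livers, with its knockout females 3.42-fold above control females in the authors' deposited table (adjusted p = 0.00026). It passed voom between the knockout sexes, with non-overlapping pools (log2 1.38, standard error 0.22, adjusted p = 0.048). Hsd3b5, a ketosteroid reductase and a marker of male liver, had 3.67 and 7.84 FPKM in knockout males, 1.45 and 0.555 in knockout females, 44.5 and 89.5 in control males and 3.07 and 1.45 in control females. It stayed 5.66-fold higher in knockout males in the authors' deposited table (adjusted p = 2.3e-07) at a level far below control males, and missed the threshold in voom (adjusted p = 0.22). Gstp1, a glutathione S-transferase, had 82.6 and 123 FPKM in knockout males against 37.5 and 61.4 in knockout females, and 167 and 483 in control males against 30.8 and 29.5 in control females. It just met the rule in knockout, where the authors' deposited table gave 2.11-fold (adjusted p = 0.0068; voom adjusted p = 0.44). Lower levels were measured for 2 acetyltransferase genes, Nat8 with 1.35 and 1.09 FPKM in knockout males and 0.106 and 0.137 in knockout females and Cml5 with 1.73 and 0.79 FPKM in knockout males and 0.0333 and 0 in knockout females. Both were called higher in knockout males in the authors' deposited table and neither by voom.

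The position of the control-dimorphic genes was compared with what was left in knockout. Of the 43 male-biased genes, 21 had another gene of the same control bias within 100 kb (48.8%), against 20 of the 99 that did not meet the rule in knockout (20.2%). Of the 50 female-biased genes, 11 had such a neighbour (22%), against 6 of 80 (7.5%). Distances are between gene midpoints on mm9, and neighbours in the Mup, Sult2a, Cyp and Slc22a families can share reads. The genes that met the rule in both genotypes were also the more abundant ones. Their median level in the higher control sex was 22.4 FPKM for male-biased and 8.22 FPKM for female-biased genes, against 7.84 and 3.65 FPKM for those that did not meet it in knockout. The knockout ratio exceeded the control ratio for 4 of the 43 and 11 of the 50. Of these genes 39 and 38 were called in knockout by the authors' adjusted p, and 10 and 16 by voom.

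STAT5 dimers bind a palindrome whose letters are TTCNNNGAA, and the promoters of genes that stayed dimorphic were searched for it on both strands. RefSeq promoters on GRCm38.p6, from 250 bases before to 50 after the start of transcription, were found for 6677 of the 9060 genes. A gene was counted where any of its promoters held the motif. This gave 8.16% of the 6677 genes, beside 9.55% of all 27025 genes with such a promoter. Of all 32851 single promoters, 8.3% held it. The motif was found for 5 of 32 female-biased genes that stayed so and for 2 of 38 of those that did not meet the rule in knockout. It was found for 2 of 22 male-biased genes that stayed so and for 7 of 69 of those that did not meet the rule. The counts are small and were not tested. The 250 bases before the start are shown for 4 genes that stayed dimorphic and hold the motif, and for Cyp2b13, whose sex difference was not called in knockout and whose window holds none. These windows, in the order shown, lie at chr15:60921271-60921520 (minus strand), chr10:33857472-33857721 (plus strand), chr19:7802668-7802917 (minus strand), chr7:87246399-87246648 (plus strand) and chr7:26061245-26061494 (plus strand). Capitals mark the motif, and a match is not a site of binding.
A1bg: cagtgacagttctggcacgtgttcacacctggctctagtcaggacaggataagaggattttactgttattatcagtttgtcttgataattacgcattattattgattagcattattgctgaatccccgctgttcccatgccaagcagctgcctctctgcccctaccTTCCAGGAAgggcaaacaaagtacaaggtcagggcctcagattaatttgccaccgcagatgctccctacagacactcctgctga
Sult3a1: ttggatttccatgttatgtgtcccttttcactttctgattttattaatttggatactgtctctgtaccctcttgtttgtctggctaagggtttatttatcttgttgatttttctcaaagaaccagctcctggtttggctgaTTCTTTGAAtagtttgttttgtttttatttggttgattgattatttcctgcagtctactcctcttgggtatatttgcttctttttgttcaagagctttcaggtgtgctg
Slc22a26: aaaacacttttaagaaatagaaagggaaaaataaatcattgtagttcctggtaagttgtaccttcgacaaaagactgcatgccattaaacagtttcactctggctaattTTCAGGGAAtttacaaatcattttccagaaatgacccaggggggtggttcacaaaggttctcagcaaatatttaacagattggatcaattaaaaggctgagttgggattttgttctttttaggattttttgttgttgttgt
Nox4: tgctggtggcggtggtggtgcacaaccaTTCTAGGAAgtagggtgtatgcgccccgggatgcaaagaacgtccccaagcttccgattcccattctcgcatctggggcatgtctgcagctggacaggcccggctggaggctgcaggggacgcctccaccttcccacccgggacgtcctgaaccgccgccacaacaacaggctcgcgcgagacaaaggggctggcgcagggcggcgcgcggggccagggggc
Cyp2b13: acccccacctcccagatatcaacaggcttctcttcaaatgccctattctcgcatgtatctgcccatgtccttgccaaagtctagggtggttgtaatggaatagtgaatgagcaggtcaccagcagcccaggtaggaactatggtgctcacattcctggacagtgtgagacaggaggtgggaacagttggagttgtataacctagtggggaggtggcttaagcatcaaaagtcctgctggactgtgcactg

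The clearest loss of a sex difference was at Cyp2b13 and Cyp2b9, female-specific cytochromes P450 that lie side by side on chromosome 7. Cyp2b13 (chromosome 7, 26846513 to 26881215 on mm9) had 99.6 and 53.4 FPKM in male and 45.4 and 53.2 in female knockout livers, beside 0.219 and 0.0861 in male and 61.8 and 46.9 in female control livers. The 4 knockout libraries spanned 45.4 to 99.6 FPKM beside 46.9 to 61.8 FPKM in control females, and control males were close to 0. The ratio of knockout males to knockout females was 1.6 in the authors' deposited table (adjusted p = 0.69). The change of the sex difference between genotypes was 6.14 on the log2(FPKM + 1) scale with a standard error of 0.40 (limma adjusted p = 0.0049). Limma called this interaction for 1 of 9567 genes fitted (0.0105%) and voom for 0 of 12980 (0%), with 527 (5.51%) and 662 (5.1%) at an unadjusted p under 0.05. For Cyp2b13 the voom adjusted p was 0.22. Without the deeper control female library limma called 0 genes, and without the deeper control male library 14. Cyp2b9 had 121 and 91.9 FPKM in male and 128 and 114 in female knockout livers. In control livers it had 6.52 and 1.29 FPKM in males and 126 and 95.7 in females. Its knockout sexes overlapped, unlike those of Cyp2b13, and its interaction had a limma adjusted p of 0.26. For the other genes below, a change of the sex difference between genotypes was not called.

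Among male-biased genes, Elovl3, an elongase of very long chain fatty acids, had 2.72 and 3.91 FPKM in knockout males against 2.34 and 1.08 in knockout females, and 5.51 and 74.4 in control males against 0.937 and 0.531 in control females. Knockout values of the sexes lay within a few FPKM of each other, with both male libraries above both female libraries. The male over female log2 in knockout was 0.95 by the authors' ratio and 0.99 by voom, just short of 2-fold, and was not called in the authors' deposited table. The shallower control male library alone carried the high control mean. Serpina1e, a protease inhibitor, had 15.7 and 23.7 FPKM in male and 28.8 and 16.3 in female knockout livers, beside 629 and 41.4 in male and 17.6 and 24.8 in female control livers, with the high control value in the deeper control male library alone. Gm6614, with 1.29 and 3.7 FPKM in knockout males, 4.24 and 0.152 in knockout females, 11.7 and 3.97 in control males and 0.0739 and 0.034 in control females, had knockout sexes that overlapped. Bcl6, a repressor of female-biased genes in mouse liver, had 6.54 and 5.57 FPKM in knockout males against 5.24 and 4.24 in knockout females, and 5.49 and 3.29 in control males against 1.42 and 0.668 in control females. Knockout females lay above every control female library, and the sexes were no longer called (1.3-fold, adjusted p = 1 in the authors' deposited table). Among known female-biased genes, Slc22a29, of the organic anion transporter family, had 3.83 and 3.19 FPKM in male and 3.1 and 3.12 in female knockout livers. In control livers it had 0.109 and 0.0731 FPKM in males and 1.25 and 0.391 in females. Its control female mean was below 1 FPKM, so it did not meet the rule in control. Fmo2, a flavin monooxygenase, had 2.97 and 2.69 FPKM in knockout males, 4.13 and 3.76 in knockout females, 2.34 and 1.6 in control males and 7.31 and 7.93 in control females. Neither was called between the knockout sexes.

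**Figure D3:**
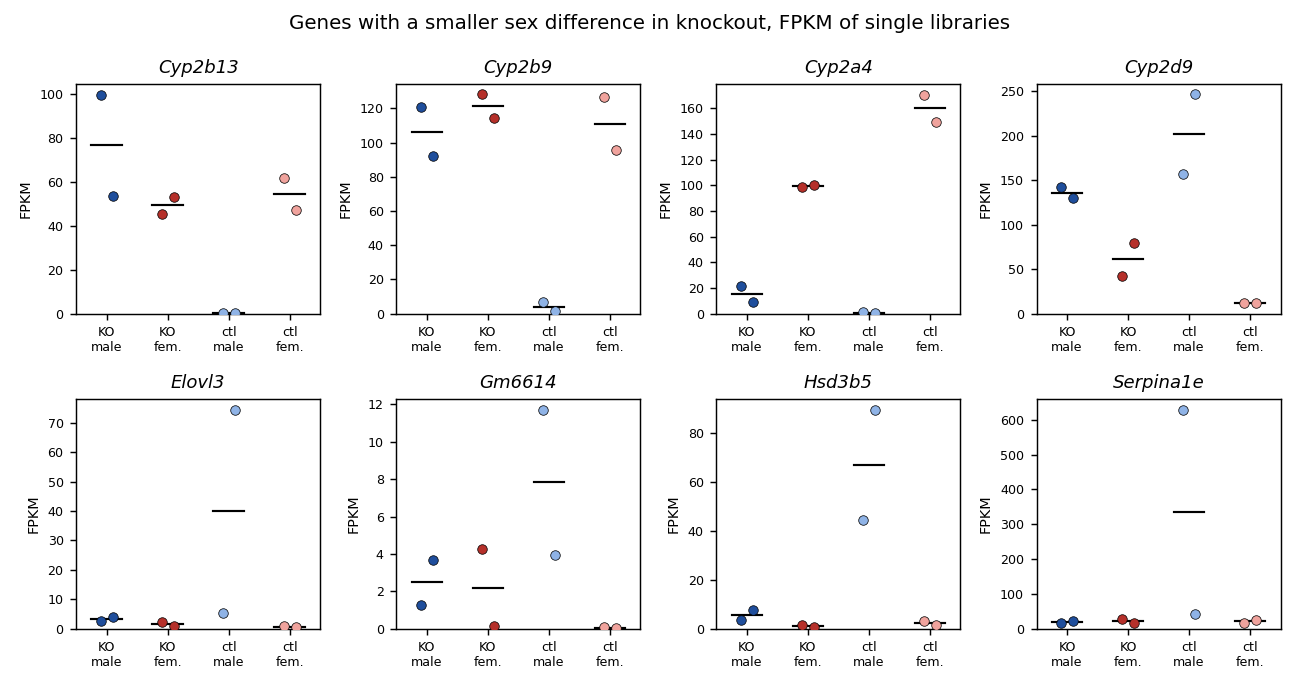
Each panel gives the FPKM of the single libraries of 1 gene in knockout (KO) males, KO females, control (ctl) males and ctl females, with a line at the group mean. For Cyp2b13 and Cyp2b9 both knockout sexes sit near control females. For Elovl3 and Serpina1e both knockout sexes lie below both control male libraries. In Gm6614 the knockout sexes overlap, with the female pools far apart. Cyp2a4, Cyp2d9 and Hsd3b5 keep a smaller difference.

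Knockout was then compared with control within each sex for the genes dimorphic in control. These counts share the control libraries that chose the genes, which favours movement toward the other sex, and are a description. Of the 147 male-biased genes, the authors' deposited table called 44 lower and 6 higher in knockout males against control males, and 40 higher and 12 lower in knockout females against control females. Over all 9060 genes it called 265 higher (2.92%) and 131 lower (1.45%) in knockout males and 224 higher (2.47%) and 94 lower (1.04%) in knockout females. Of the 133 female-biased genes, it called 48 higher and 3 lower in knockout males, and 14 higher and 15 lower in knockout females. No gene of the female-biased group fell in males and rose in females, while 5 rose in males and fell in females. In the male-biased group 2 fell in males and rose in females.

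**Figure D4:**
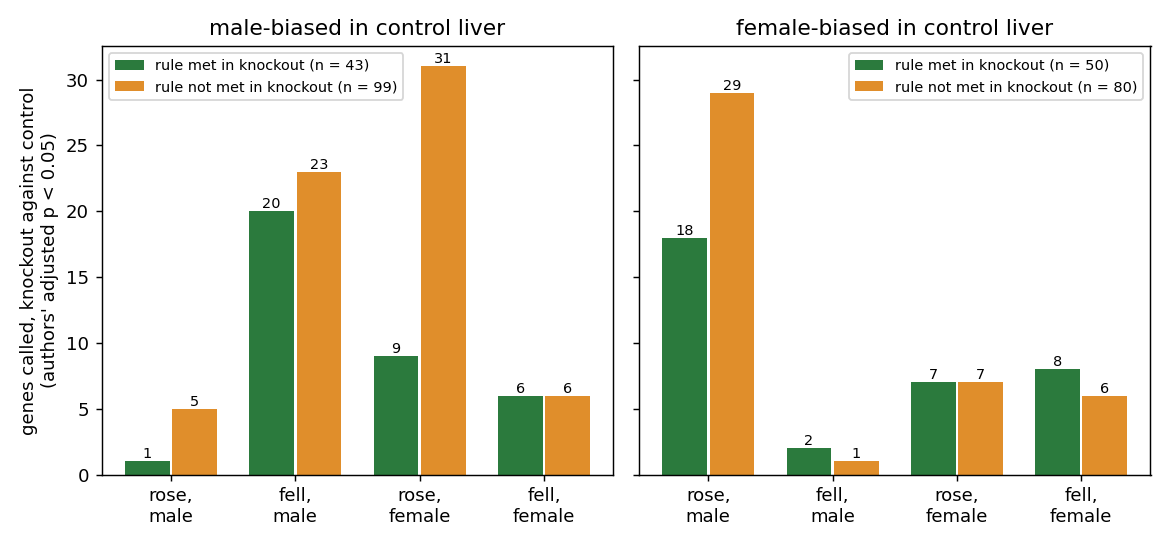
Bars count genes that the authors' adjusted p called higher or lower in knockout than in control liver, separately in males and females, for genes male-biased in control (left) and female-biased in control (right). Green bars are the genes that met the 2-fold rule in knockout and orange bars those that did not, with their numbers in the legend, and the tallest bars are male-biased genes rising in females (31) and female-biased genes rising in males (29) among those that did not meet it.

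Some genes differed between the knockout sexes and not between the control sexes. By the authors' adjusted p, 42 genes were higher in males and 44 higher in females in knockout liver and were not called in control. A call in 1 genotype alone does not show that the sex difference changed, and the interaction was called for none of those fitted by limma or voom. The growth hormone axis gave several of the female-higher genes. Of 21 genes of growth hormone and sex hormone signalling, 0 were called higher in knockout males and 6 higher in knockout females in the authors' deposited table, against 0 and 2 in control liver. The 2 called in control were among the 6, so not all 6 are of this kind. Igfbp1 and Prlr were female-biased by the 2-fold rule in both genotypes. Voom called 2 of the 6 in knockout liver, Igfbp3 and Prlr. Igf1, the main hormone that liver releases in response to growth hormone, had 11.7 and 18 FPKM in knockout males against 36.7 and 24 in knockout females, and 47.3 and 51.1 in control males against 56.8 and 77.2 in control females. It fell in both sexes on knockout in the authors' deposited table, and knockout males were the lowest group, 2.02-fold below knockout females (adjusted p = 0.012; voom adjusted p = 0.19). Igfals, which holds circulating growth factor in a stable complex, had 6.2 and 11 FPKM in male and 22 and 14.4 in female knockout livers, beside 27.2 and 23.4 in male and 25.8 and 23.3 in female control livers. Igfbp3, the main carrier in that complex, had 1.28 and 1.46 FPKM in knockout males, 4.76 and 4.16 in knockout females, 2.83 and 2.71 in control males and 3.39 and 3.13 in control females. It was 3.21-fold higher in knockout females in the authors' deposited table (adjusted p = 7.1e-12), with a voom log2 of -1.68, standard error 0.14, and adjusted p of 0.0018. Socs2, a feedback inhibitor of the receptor, had 0.725 and 1.54 FPKM in knockout males against 4.46 and 2.52 in knockout females, and 4.76 and 5.33 in control males against 4.79 and 10.9 in control females and was called in the authors' deposited table (adjusted p = 0.00052) and not by voom (adjusted p = 0.36). Ghr, the receptor, had 59.3 and 70.0 FPKM in knockout males and 57 and 59 in knockout females. Esr1, the estrogen receptor, had 2.92 and 2.8 FPKM in knockout males and 3.24 and 3.13 in knockout females. Hnf4a, a regulator of hepatocyte genes, had 48.7 and 60.9 FPKM in knockout males and 59.3 and 57.9 in knockout females. None of these 3 was called in knockout or control in the authors' deposited table. Remaining Stat5b was higher in both knockout female libraries than in both knockout male libraries, though not called in the authors' deposited table. Its part in the differences of this paragraph was not tested.

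The male-higher genes of this kind included some that were near 0 in control liver. Igdcc4, a membrane protein of the immunoglobulin superfamily (chromosome 9, 64949292 to 64985754), had 1.85 and 2.44 FPKM in male and 0.274 and 0.382 in female knockout livers, beside 0.011 and 0 in male and 0.0324 and 0.0107 in female control livers. It rose in both sexes on knockout in the authors' deposited table and was 6.69-fold higher in knockout males (adjusted p = 3.0e-24; voom log2 2.75, standard error 0.21, adjusted p = 0.0012). Spp1, osteopontin, which bile duct cells and macrophages also make, had 37.1 and 28.2 FPKM in knockout males, 5.43 and 8.79 in knockout females, 2.13 and 5.94 in control males and 4.79 and 4.37 in control females. It was 4.72-fold higher in knockout males in the authors' deposited table (adjusted p = 7.8e-14; voom adjusted p = 0.017). The defining bile duct markers Krt19, with 0.069 and 0.148 FPKM in knockout males and 0.215 and 0.155 in knockout females, and Epcam, with 0.0306 and 0.164 FPKM in knockout males and 0.0798 and 0.0824 in knockout females, were near 0 in all 4. The 11 bile duct markers summed to 57.6 and 46.3 FPKM in knockout males and 19.4 and 28.6 in knockout females, Spp1 included. The 13 Kupffer cell and macrophage markers measured had 0 calls, with summed levels of 144 and 140 FPKM in knockout males and 118 and 156 in knockout females. Ifi27l2b, an interferon-inducible gene, had 8.98 and 4.06 FPKM in knockout males against 0.722 and 1.4 in knockout females, and 0.0942 and 0.443 in control males against 0.343 and 0.182 in control females. It was called in the authors' deposited table (6.42-fold higher in knockout males, adjusted p = 1.5e-07) and not by voom (adjusted p = 0.14), and its deeper knockout male pool was also the one with high Gbp2. Smpd3, a neutral sphingomyelinase, had 1.72 and 1.3 FPKM in male and 0.313 and 0.462 in female knockout livers, beside 0.247 and 0.157 in male and 0.101 and 0.0904 in female control livers. Isyna1, which makes inositol phosphate, had 3.14 and 3.76 FPKM in knockout males, 1.68 and 1.64 in knockout females, 0.728 and 0.791 in control males and 0.864 and 0.687 in control females. Both passed voom between the knockout sexes (adjusted p = 0.017 and 0.02), and both were chosen after their values were seen. Sult1e1 had 10.1 and 12.9 FPKM in knockout males against 2.45 and 5.19 in knockout females, and 0.163 and 0 in control males against 0.71 and 0.158 in control females and was 3.08-fold higher in knockout males in the authors' deposited table (adjusted p = 1.3e-05; voom adjusted p = 0.066). It rose in both sexes on knockout in the authors' deposited table.

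Genes of bile acid and fatty acid metabolism also differed. Of 24 bile acid and cholesterol genes, 4 were called higher in knockout males and 0 in knockout females in the authors' deposited table, and voom called 0. Cyp7a1, the rate-limiting enzyme of bile acid synthesis, had 72 and 67 FPKM in male and 20.9 and 37.7 in female knockout livers, beside 43.6 and 19.9 in male and 56.5 and 48.1 in female control livers, a 2.42-fold difference between the knockout sexes in the authors' deposited table (adjusted p = 0.00052; voom adjusted p = 0.36). The control sexes were not called, and both knockout male pools exceeded both knockout female pools. Cyp8b1, needed for cholic acid synthesis, had 28.8 and 43.3 FPKM in knockout males, 21.1 and 15.6 in knockout females, 17.6 and 39.3 in control males and 15.8 and 13.1 in control females. Slc10a2, a bile acid transporter, had 18.7 and 17.1 FPKM in knockout males against 7.85 and 10.7 in knockout females, and 19.6 and 17.1 in control males against 12.3 and 11.2 in control females. The other, Cyp7b1, an oxysterol hydroxylase, was male-biased in both genotypes, with 8.8 and 19.5 FPKM in male and 7.3 and 6.14 in female knockout livers, beside 71.7 and 136 in male and 16 and 18.9 in female control livers. Cyp4a14, a fatty acid hydroxylase and target of PPARalpha, was the reverse, with 10.9 and 4.83 FPKM in knockout males, 69.1 and 21.7 in knockout females, 8.9 and 7.51 in control males and 7.55 and 14.1 in control females. The deeper knockout female library stood apart in Cyp4a14 and in Vnn1, a pantetheinase, which had 1.65 and 1.4 FPKM in knockout males against 9.31 and 2.85 in knockout females, and 1.83 and 0.334 in control males against 0.549 and 1.84 in control females. Both were called higher in knockout females in the authors' deposited table (adjusted p = 8.8e-05 and 0.00064) and neither by voom. Camk1d, a calcium-dependent kinase outside the naming rule, had 0.885 and 1.27 FPKM in male and 2.98 and 3.28 in female knockout livers, beside 1.99 and 2.71 in male and 2.2 and 3.42 in female control livers and passed both tests (voom adjusted p = 0.034). Of 29 genes of lipid synthesis and storage, 3 were called higher in knockout males (Scd2, Cd36 and Mogat1) and 1, Acacb, higher in knockout females in the authors' deposited table, and voom called 0. Cd36, a fatty acid transporter, had 21.3 and 19.4 FPKM in knockout males, 8.5 and 14.2 in knockout females, 2.45 and 1.52 in control males and 2.39 and 2.96 in control females. Acacb, an acetyl-CoA carboxylase, had 2.18 and 2.11 FPKM in knockout males against 4.67 and 4.52 in knockout females, and 4.73 and 2.49 in control males against 5.81 and 3.94 in control females. Both knockout pools of 1 sex lay on the same side of both pools of the other.

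**Figure D5:**
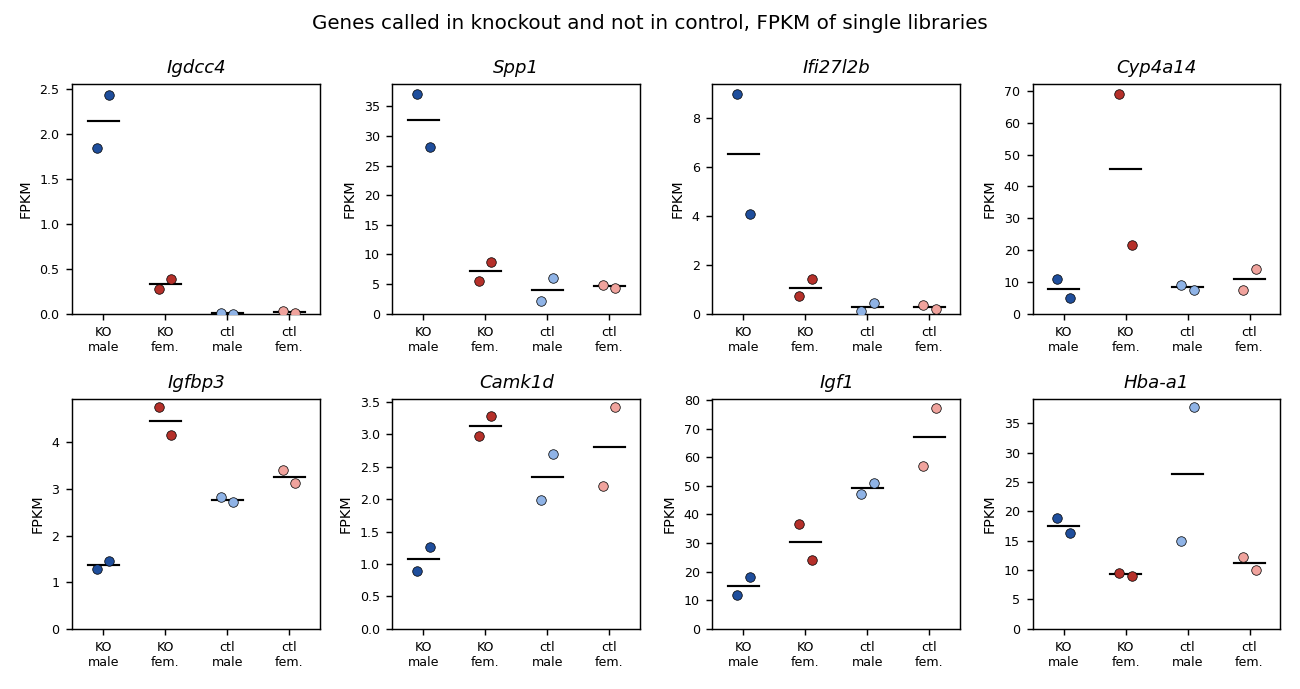
Each panel gives the FPKM of the single libraries of 1 gene in knockout (KO) males, KO females, control (ctl) males and ctl females, with a line at the group mean. Igdcc4, Spp1, Ifi27l2b and Hba-a1 are higher in KO males than in KO females and Cyp4a14, Igfbp3, Camk1d and Igf1 higher in KO females, and the control sexes were not called for any of the 8.

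The lists of known dimorphic genes, drawn up with earlier results of these libraries known, kept their direction in knockout liver with exceptions. Of 35 male-biased liver genes measured, 18 were called higher in knockout males and 1, Trim24, higher in knockout females in the authors' deposited table, against 30 and 1 in control liver, and voom called 6 and 0 in knockout. The median log2 of the authors' deposited table's ratio of males to females was 1.08 in knockout and 2.99 in control over the list, beside 0.01 and 0.02 over all 9060 genes. Of 49 female-biased liver genes, 4 were called higher in knockout males and 26 higher in knockout females in the authors' deposited table, against 1 and 40 in control liver, and voom called 1 and 16 in knockout. The median log2 of that ratio was -1.35 in knockout and -3.02 in control. The 4 were Sult1e1, Sult2a7, Slc22a28 and Cd36. Slc22a28 had 0.913 and 1.49 FPKM in male and 0.459 and 0.127 in female knockout livers, beside 4.69 and 6.04 in male and 1.25 and 0.664 in female control livers, so it was male-biased in both genotypes. Of 66 cytochrome P450 genes measured, 10 were called higher in knockout males and 12 in knockout females in the authors' deposited table, and voom called 2 and 4. Of 14 glucuronosyltransferases 0 and 2 were called, of 18 glutathione S-transferases 1 and 0, of 26 serpins 0 and 0, of 22 steroid metabolism genes 2 and 2 and of 42 liver transcription factors 0 and 2, the last being Cux2 and Trim24. Among 30 acute phase genes, only Orm2, an orosomucoid, was called in the authors' deposited table, higher in knockout males. It had 237 and 297 FPKM in knockout males, 78.7 and 139 in knockout females, 4.43 and 1.25 in control males and 6.38 and 3.35 in control females, and the voom adjusted p was 0.17. All 4 knockout libraries exceeded all 4 control libraries in Orm2 and in Saa1, a serum amyloid, which had 1811 and 3084 FPKM in knockout males against 1127 and 1839 in knockout females, and 64.9 and 38.6 in control males against 27.4 and 12.3 in control females.

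Among markers of other cells, all 6 globin genes measured were higher in knockout males in the authors' deposited table, with summed levels of 223 and 185 FPKM for the red blood cell list in knockout males, 116 and 101 in knockout females, 162 and 451 in control males and 151 and 127 in control females. Voom called 0 of the 6. The part of blood RNA in the other differences was not tested. The 13 stellate cell and fibroblast markers listed summed to 45.6 and 52.7 FPKM in knockout males, 64.7 and 61.9 in knockout females, 42.8 and 58 in control males and 66.5 and 69.3 in control females, so the sexes did not overlap in either genotype. Of the 10 that reached 1 FPKM in knockout liver, 4 had an unadjusted p under 0.05 between the knockout sexes in the authors' deposited table and 1 was called, Lrat, which stores retinol as ester, with 1.53 and 1.6 FPKM in male and 2.67 and 2.47 in female knockout livers, beside 1.61 and 1.66 in male and 2.83 and 2.35 in female control livers. Of 18 hepatocyte genes, 1 was called, Pck1, the enzyme of glucose production, with 214 and 305 FPKM in knockout males, 445 and 443 in knockout females, 321 and 258 in control males and 421 and 350.0 in control females. Endothelial and lymphocyte lists had 0 calls among 13 and 2 genes measured, and no neutrophil marker reached 1 FPKM. Lars2, the mitochondrial leucyl-tRNA synthetase, had 47.5 and 26.3 FPKM in knockout males against 8.3 and 5.94 in knockout females, and 24.5 and 15.5 in control males against 8.69 and 11.8 in control females and was 5.33-fold higher in knockout males in the authors' deposited table (adjusted p = 4.1e-12; voom adjusted p = 0.034). Mir6236 moved with it, with 150.4 and 71.4 FPKM in male and 24.3 and 9.32 in female knockout livers, beside 60.0 and 52.5 in male and 22.1 and 25.4 in female control livers. The ribosomal RNA precursor Rn45s, which the depletion step removes in part, had 1385 and 1212 FPKM in knockout males, 1259 and 1057 in knockout females, 1112 and 1345 in control males and 1193 and 885 in control females, and its part in these values was not tested.

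A large ratio did not always rest on many reads. Among the 24 genes with the largest ratios in knockout liver, 12 each way, 8 were genes under 200 bases, microRNA or small nucleolar RNA genes with 3 to 9 reads in all 4 knockout libraries together. They include Mir26b, Mir6897, Mir7086 and Mir874 and are given as counts only. Without genes under 200 bases, 85 of 231 control-dimorphic genes stayed dimorphic, 40 male-biased and 45 female-biased, and 2 met the rule in opposite directions. The pair were Serpina3h, a protease inhibitor, with 0.692 and 1.97 FPKM in knockout males against 0.449 and 0.58 in knockout females, and 0.134 and 0.236 in control males against 3.36 and 1 in control females, and Wfdc2, a secreted protein of whey acidic type, with 0.312 and 0.335 FPKM in male and 2.32 and 1.02 in female knockout livers, beside 1.26 and 1.14 in male and 0.611 and 0.47 in female control livers. The authors' deposited table called Wfdc2 higher in knockout females (adjusted p = 0.0027) and did not call it in control (adjusted p = 0.82). It called Serpina3h higher in control females (adjusted p = 1.5e-07) and did not call it in knockout (adjusted p = 0.17).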

How the data were processed

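RNA of whole liver was sequenced as stranded libraries after depletion of ribosomal RNA, per the labels' protocols. According to the submitters' processing notes, the authors used TopHat2, featureCounts and edgeR on mm9. The version of each tool is not given in the sources used here, nor is the annotation. The authors' deposited table holds, per the file headers, mean FPKM per group and, for each of 4 comparisons, a normalized expression ratio with edgeR's p-value and adjusted p-value. The ratio and p-value were not used to choose genes. A few abundant transcripts lower the FPKM of all others in a library.

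The authors' adjusted p comes first because the deposited table holds means. Reads of the 2 libraries a group were recovered as the whole numbers whose FPKM average to the deposited mean within a tolerance of 1e-08 reads. Whole numbers were found for all 18004 genes above 0. The shortest gene length that gave whole reads was taken. Where the reads and length of a gene share a factor, both may be recovered too small, while the FPKM is unchanged. Libraries could not be tied to pool numbers, and are named by depth. Recovered reads of 10 or more in at least 2 libraries were fitted with limma voom, scaled by the median of ratios, and log2(FPKM + 1) with limma (version 3.58.1, R 4.3.3), on all 8 libraries with Benjamini-Hochberg adjustment. Both fits were tested on simulated data. The limma fit took genes of at least 1 FPKM in a group.

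The genes and lists were chosen with earlier results of these data known. Named genes were the 12 with the largest ratio each way in knockout and in control, those dimorphic in opposite directions, the 8 each way largest in knockout and under 1.5-fold in control, the 4 with the lowest adjusted p in each list, and known growth hormone and sex steroid genes. Ratios for ranking had 0.1 FPKM added. C4a, C8a, Camk1d, Cyp2b9, Cyp2c29, Cyp2d9, Epcam, Fmo2, Gbp2, Igfals, Isyna1, Krt19, Lars2, Mir6236, Nat8, Nox4, Rn45s, Saa1, Serpina1e, Slc22a28, Slc22a29, Smpd3, Sult1e1, Sult2a4, Sult2a6 and Sult2a7 were named after their values were seen. A single gene that met the naming rule is not reported here.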

Additional observations from a re-analysis of the deposited data

Results flagged for a closer look

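Cyp2b13 was the 1 gene for which limma called a change of the sex difference with genotype (adjusted p = 0.0049). The knockout minus control difference of the male over female log2 was 6.14 in limma on log2(FPKM + 1). Both knockout male libraries lay above both knockout female libraries, the closest pair nearly equal, and control females lay far above control males.

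For 8 genes the 2-fold rule was met in both genotypes, in opposite directions. The limma interaction fit called none of them, nor did voom for the 3 it fitted, Mir207, Serpina3h and Wfdc2. In knockout liver the log2 ratio of males to females, with 0.1 FPKM added, was 1.22 for Serpina3h, which was female-biased in control, and -2.06 for Wfdc2, which was male-biased in control. The others were genes under 200 bases with 3 to 29 reads in all 4 knockout libraries together. Their knockout ratios were 3.56 for Snord93, -3.91 for Mir7079, -2.16 for Mir7663, -0.92 for Mir8112, -1.22 for Mir207 and 0.97 for Mir677, each opposite in sign to control.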

How the results depend on the processing

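The number of genes dimorphic in both genotypes, 93 of 280, depended on the rule. It was 196 of 800 at 1.5-fold, 42 of 106 at 4-fold, 57 of 130 with at least 5 FPKM, 258 of 1483 with no FPKM minimum, 57 of 229 without families of near-identical copies, and 20 of 84 by voom in both genotypes. It stayed within 1.5 times at 109 of 328 with overlap allowed, 85 of 231 without genes under 200 bases, 96 of 285 with centred ratios, 95 of 254 by the authors' adjusted p, and 94 to 115 when each library was left out in turn. The number dimorphic in control moved more, to 549 without the deeper control male library, of which 106 stayed. The settings without short genes, without families and with centred ratios were added after seeing the data.

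The authors' 181 knockout calls became 108 with at least 5 FPKM, 41 by voom and 27 by limma on log2(FPKM + 1), and their 254 control calls became 151, 84 and 97. Voom called 17 genes when fitted on the knockout libraries alone and 25 to 45 when each library was left out, with 25 without the deeper knockout female library and 26 and 25 without the deeper or shallower library of control females. Limma called 10 with a pseudocount of 0.1, 5 with no filter, 16 with upper quartile scaling, 16 with median of ratios scaling, 11 on the knockout libraries alone and 4 to 21 when each library was left out, with 9 and 4 without the deeper or shallower library of knockout males, 7 and 9 without those of knockout females and 15 without the deeper one of control females. In control liver leaving out each library gave 19 to 121 voom calls and 32 to 231 limma calls, 19 and 32 without the deeper and 43 and 57 without the shallower one of control females, 49 and 51 without the shallower and 79 and 231 without the deeper one of control males, and limma without a filter gave 42. The interaction was called for 1 gene by limma, 0 by voom, 2 with no filter and 0 to 14 when each library was left out. A left-out library leaves 1 in its group, which is then assumed to vary like the others. The cause of these changes was not tested.

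Of 114 named genes, the authors' adjusted p called 64, and of these voom called 25 and limma 20. None of the 64 changed sign. Of those not called, 5 had a male over female log2 that changed sign. Onecut1 was 0.02 by the authors' ratio, -0.0466 by voom and -0.0501 by limma. By voom it ran from -0.565 to 0.471 when each library was left out, at -0.292 without the deeper knockout female library, -0.0476 and -0.0472 without the deeper or shallower one of control males and -0.0452 and -0.0460 without those of control females. The left-out voom values ran from -0.92 to 3.76 for Gm6614 (0.18 by the authors' ratio), -0.22 to 0.10 for Jak2 (-0.06), -0.92 to 1.38 for Cish (0.66) and -0.190 to 0.0226 for Hnf4a (-0.07). No paired analysis was possible because the recovered libraries carry no pool number. Genes near 1 FPKM and genes under 200 bases rest on few reads, and a difference that was not called is not shown to be absent at 2 pools a group.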

Other observations

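Dusp1, Fkbp5 and Rgs16 were female-biased by the 2-fold rule in both genotypes, and were chosen after their values were seen. Dusp1, a phosphatase of MAP kinases, had 4.94 and 4.99 FPKM in knockout males, 9.29 and 23.5 in knockout females, 4.06 and 2.91 in control males and 9.76 and 11.5 in control females. Fkbp5, a cochaperone of the glucocorticoid receptor, had 2.38 and 4.83 FPKM in knockout males, 11.8 and 8.23 in knockout females, 6.47 and 1.62 in control males and 10.04 and 11.3 in control females. Rgs16, a regulator of G protein signalling, had 8.22 and 13.2 FPKM in knockout males, 23.9 and 21.9 in knockout females, 5.76 and 1.11 in control males and 16.7 and 13.5 in control females. The authors' deposited table called all 3 higher in knockout females (adjusted p = 0.00021, 0.00015 and 0.00052), and voom called 0 of them.

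Some control-dimorphic genes were below 1 FPKM in both knockout groups and are outside the counts above. Over all autosomal genes the rule gave 182 male-biased and 147 female-biased genes in control, of which 147 and 133 reached 1 FPKM in knockout. Capn8, a calpain chosen after its values were seen, had 0.349 and 0.594 FPKM in knockout males, 0.0799 and 0.0458 in knockout females, 0.944 and 1.26 in control males and 0.0234 and 0.0179 in control females, so the sexes did not overlap in either genotype.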
